A study of Mus musculus with 10 samples.

Results

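Neural stem and progenitor cells (NSC/NPCs) from the subependymal zone (SEZ), a neurogenic niche of the adult mouse brain, were cultured and compared between cultures labelled p27KO and wild type (WT) 24 h after mitogen withdrawal. The 5 libraries of this time point, 3 WT and 2 p27KO, were selected by their column names among the 10 RNA-seq libraries of the series. The other 5, 3 WT and 2 p27KO, came from proliferating neurospheres grown with 20 ng/ml EGF and 10 ng/ml FGF. Both genotypes were given as 10 weeks old. Cells of secondary neurospheres were seeded on Matrigel with FGF for 2 days, after which mitogens were removed and 2% FBS was added for 24 h, a stage written 2+1 DIV (days in vitro). p27KO stands for mice mutant for Cdkn1b, obtained from the Jackson Laboratory and kept on a C57BL/6J background according to the methods. The methods call the RNA-seq replicates biological, without saying how many animals or cultures gave each library, and p-values measure the spread between these libraries.

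The labels of the mutant libraries did not all match. Their titles and genotype field give p27KO, whereas their free-text description calls them WT, so that they are named here as the libraries labelled p27KO. Cdkn1b, the gene that encodes p27, was present at 207, 205 and 209 CPM (the count of a gene scaled to the total of its library) in WT and at 140 and 137 CPM in the libraries labelled p27KO. The 2 groups did not overlap, but transcript of the gene was not lost. The log2 fold change was -0.56 ± 0.09 (SE; adjusted p = 0.012 by edgeR's quasi-likelihood test). This call was not made when either library labelled p27KO was left out (adjusted p = 0.11 and 0.15). In neurospheres Cdkn1b was at 103, 105 and 112 CPM in WT and at 114 and 90.7 CPM in p27KO, so that the groups overlapped there (-0.03 ± 0.09; adjusted p = 1.00). Counts per gene do not tell which part of Cdkn1b the reads came from. Xist, which is transcribed from the inactive X chromosome of female cells, was at 2.54-2.57 CPM in the WT libraries and 3492-3595 CPM in those labelled p27KO, and the summed genes of the Y chromosome were at 369-533 against 0.436-0.585 CPM. Genotype, sex and culture of origin therefore cannot be told apart in any difference given below, and only autosomal genes are described.

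Library totals at 2+1 DIV ranged from 19649261 to 25291674 counts. Of 48795 listed genes, 12859 passed the filter on low counts and 12352 of these are autosomal. Mitochondrial genes took 5.44-6.82% of the counts. Microglial, endothelial, mural and ependymal markers were low in both groups or close between them. None of 12 microglial genes passed the filter (summed level 1.27-1.28 CPM in WT and 0.238-1.17 CPM in p27KO, with Tyrobp, C1qa, C1qb and Trem2 at 0 in all 5 libraries). The summed levels were 7-15.3 against 8.76-15.7 CPM for 8 endothelial genes (Cdh5 and Cldn5 at 0) and 3.77-4.82 against 5.63-10.8 CPM for 8 mural and fibroblast genes (Lum at 0). They were 91.3-111 against 91.8-98.5 CPM for 6 ependymal genes (Tmem212 at 0).

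p27 belongs to the Cip/Kip family of cyclin-dependent kinase (CDK) inhibitors. It binds cyclin-CDK complexes and slows the passage from G1 into S phase, and its level rises when cells leave the cell cycle. Cyclin-CDK activity phosphorylates the pocket proteins, which releases E2F factors to transcribe genes of DNA replication. Genes of mitosis are transcribed later by the MuvB complex with B-MYB and FOXM1, while in resting cells MuvB and pocket proteins form the DREAM complex, which represses both sets. DREAM and MuvB reach mitotic promoters through an element called the CHR, often accompanied by CCAAT boxes, whereas E2F sites are typical of replication genes.

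The promoters of 3 genes with some of the smallest adjusted p-values in the comparison each hold some of these elements. They encode a subunit of ribonucleotide reductase (Rrm2), a spindle-associated protein (Ckap2) and a subunit of the replicative helicase (Mcm5). Each run below gives the 250 bases before the RefSeq start of the gene, 5′ to 3′ on the gene's strand, at chr12:24708004-24708253 (plus strand), chr8:22185820-22186069 (minus) and chr8:75109259-75109508 (plus) of GRCm38.p6. Capitals mark matches, on either strand, to the CHR (TTTGAA or TTCGAA), the CCAAT box (CCAAT, read as ATTGG on the other strand) or an E2F site (TTTCCCGC, TTTGGCGC or TTTCGCGC).
Rrm2: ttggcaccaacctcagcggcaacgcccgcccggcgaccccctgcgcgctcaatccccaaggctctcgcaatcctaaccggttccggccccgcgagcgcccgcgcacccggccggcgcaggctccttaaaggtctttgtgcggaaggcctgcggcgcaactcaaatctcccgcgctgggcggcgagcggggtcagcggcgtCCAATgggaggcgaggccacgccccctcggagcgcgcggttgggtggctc
Ckap2: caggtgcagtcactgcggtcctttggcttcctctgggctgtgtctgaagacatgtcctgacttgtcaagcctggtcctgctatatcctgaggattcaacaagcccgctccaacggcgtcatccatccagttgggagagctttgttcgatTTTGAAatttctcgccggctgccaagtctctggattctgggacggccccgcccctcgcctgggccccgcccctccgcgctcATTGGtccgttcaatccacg
Mcm5: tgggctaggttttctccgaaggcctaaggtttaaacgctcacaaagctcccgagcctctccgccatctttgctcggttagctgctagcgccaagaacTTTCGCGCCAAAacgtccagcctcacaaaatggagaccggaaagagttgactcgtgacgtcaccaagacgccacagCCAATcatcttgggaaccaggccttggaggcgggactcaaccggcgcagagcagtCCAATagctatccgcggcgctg
The Rrm2 run holds a CCAAT box that begins 50 bases before the start, and no match to the CHR or the E2F site. In Ckap2, a CHR begins 101 bases and an inverted CCAAT box 20 bases before the start. In Mcm5, matches to the E2F site at 153 and 149 bases overlap, one on each strand, and CCAAT boxes begin 77 and 22 bases before the start.

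All 3 genes were higher in the libraries labelled p27KO. Rrm2 was at 9.01, 6.47 and 8.86 CPM in the 3 WT libraries and at 24.9 and 25.2 CPM in the 2 p27KO libraries, a 3.13-fold difference (log2 fold change 1.65 ± 0.12, SE; adjusted p = 0.00033). Here and below, adjusted p-values come from edgeR's quasi-likelihood test and the Benjamini-Hochberg method. Ckap2 was at 30.4, 35.6 and 37.4 CPM in WT and at 121 and 103 CPM in p27KO (1.71 ± 0.13; adjusted p = 0.00033). Mcm5 was at 8.24, 6.42 and 7.99 CPM in WT and at 19 and 20.2 CPM in p27KO (1.39 ± 0.11; adjusted p = 0.00040). For each of them, both libraries labelled p27KO lay far above the highest WT library, and the spread within either group was small beside the gap. Genes chosen for a small adjusted p-value tend to have such a gap.

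Across autosomal genes, 230 were higher (1.86% of those tested) and 15 lower (0.121%) in the libraries labelled p27KO. At these shares a short list of genes would often hold no call. The log2 fold changes of the higher genes had a median of 1.32 and ranged from 0.37 to 2.62, with 155 genes at 1 or above, whereas the median of the lower genes was -0.68 and only 2 reached -1. Over all autosomal genes the median was -0.02. An unadjusted p under 0.05 by edgeR's test was found for 1835 of the 12352 autosomal genes tested. Counts of such genes in the lists below are to be read beside this share. The libraries of the 2 groups did not overlap for any of the 245 called genes, and neither did they for 4610 of all autosomal genes (37.3%). Most of the higher genes had low WT levels, with 137 of 230 at a WT mean under 10 CPM. These calls borrow the estimate of spread from all 10 libraries: with only the 5 libraries at 2+1 DIV, 34 genes were higher and 3 lower. Without replicate 1 or replicate 2 labelled p27KO, when the lone sample is assumed to vary like the other groups, 89 and 114 genes were higher.

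**Figure D1:**
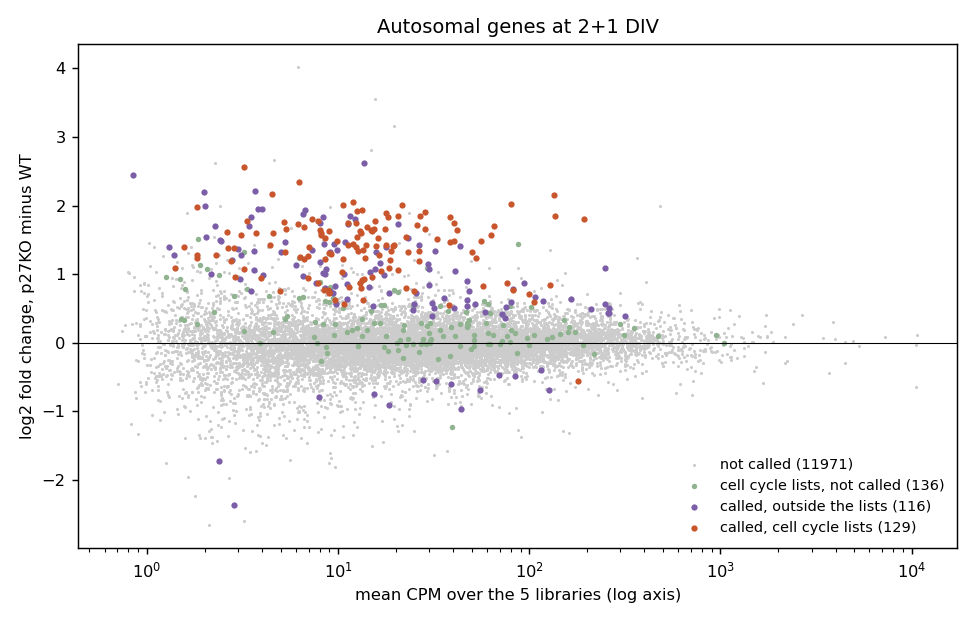
Each point is an autosomal gene, with its mean level in CPM over the 5 libraries at 2+1 DIV on the horizontal log axis and its log2 fold change, p27KO minus WT, on the vertical axis. Colours separate called genes (adjusted p under 0.05) and members of the cell cycle lists. Called genes lie mostly above 0, and the 129 called members of the lists are all above 0 except Cdkn1b, at -0.56.

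In neurospheres, where the same genotypes were grown with mitogens, no autosomal gene was called by edgeR. An unadjusted p under 0.05 was found for 576 of the 12352 autosomal genes tested, and DESeq2 called 16 higher and 20 lower. For the 230 genes higher at 2+1 DIV the median fold change in neurospheres was 0.12 on the log2 scale, and 201 were positive. The difference between the fold changes of the 2 stages was tested for each gene, and 49 autosomal genes passed, all among the 230. The number that passed depended on which library was left out, and the reason was not tested. Of the genes named in this text, 31 passed with all 10 libraries, 10 without replicate 1 of the WT neurospheres, and 0 without replicate 2 or 3 of the WT neurospheres or without any of the 4 libraries labelled p27KO.

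Genes of the cell cycle made up most of the genes that were higher. Of 265 autosomal genes tested in 13 lists of cell cycle phases and roles, 128 were higher (48.3%), against 102 of 12087 genes outside the lists (0.844%). The lists were chosen with earlier results of these data known, so that these shares are a description only. The median of the 128 was 1.42 on the log2 scale (range 0.56 to 2.56) and 0.11 in neurospheres, and 34 of them differed between stages. After withdrawal all 3 WT libraries were below every WT neurosphere library for all 128 genes, and both libraries labelled p27KO were so for 127. Of the 102 higher genes outside the lists, the same held for 86 in WT and 74 in p27KO. The share over all autosomal genes is not given here. Over the 128 genes, the median percent of the WT neurosphere mean was 10.7% in WT and 28.3% in p27KO at 2+1 DIV. It was 106% in p27KO neurospheres. The 128 were chosen as higher in p27KO at 2+1 DIV, so the order of the 2 values at that stage was given. The proliferation marker Mki67, for example, was at 118, 67.6 and 107 CPM in WT and 360 and 313 CPM in p27KO at 2+1 DIV (1.81 ± 0.19; adjusted p = 0.0011). In neurospheres it was at 800-905 CPM in WT and 889 and 954 CPM in p27KO, and the difference between stages was 1.65 (adjusted p = 0.039). In bulk libraries, more cells in the cycle and more RNA of these genes per cell cannot be told apart.

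**Figure D2:**
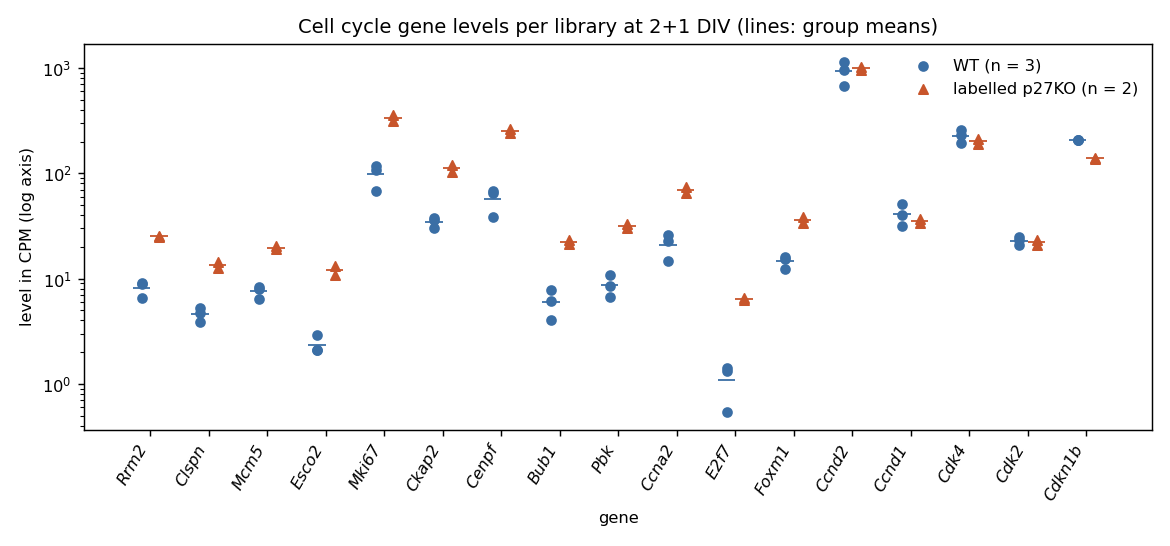
Points give the level of 17 genes in each library at 2+1 DIV in CPM on a log axis, circles for WT (n = 3) and triangles for the libraries labelled p27KO (n = 2), with lines at the group means. For the 12 replication and mitosis genes on the left both triangles lie above all circles, for the 4 genes of the D cyclins, Cdk4 and Cdk2 the groups overlap or lie close, and for Cdkn1b the triangles lie below.

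Of 45 genes of replication origins and forks, 14 were higher and none lower, with a median log2 fold change of 0.56 (0.12 in neurospheres). Clspn, which encodes claspin, a fork protein that mediates checkpoint signalling, was at 5.24, 3.85 and 4.71 CPM in WT and 14.3 and 12.6 CPM in p27KO (1.57 ± 0.12; adjusted p = 0.00040). Cdc6, which loads the helicase onto origins, was at 1.17, 0.456 and 0.909 CPM against 2.70 and 3.87 CPM (1.98; adjusted p = 0.0057). Lig1, the ligase that joins lagging-strand fragments, was at 10.6, 8.83 and 10.0 CPM against 17.4 and 18.1 CPM (0.87; adjusted p = 0.0013). Pcna, the sliding clamp of the fork, was not called, at 45.8, 43.3 and 55.8 CPM in WT and 75.6 and 69.9 CPM in p27KO (0.61; adjusted p = 0.056), although the groups did not overlap, and DESeq2 called it. Dbf4, the activating subunit of the kinase that fires origins, and Ticrr, an origin-firing factor, stand outside the list and were higher too, by 0.99 and 1.88 on the log2 scale (adjusted p = 0.00066 and 0.00033).

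Of 8 genes of deoxynucleotide synthesis, 5 were higher, with a median of 0.58, all 8 being positive. Beside Rrm2, they included the large reductase subunit Rrm1, at 92.5, 79.6 and 93.4 CPM in WT and 134 and 130 CPM in p27KO (0.59; adjusted p = 0.0087). For each of these genes, both libraries labelled p27KO were above every WT library. Among 23 genes of homologous recombination and Fanconi repair, 12 were higher, with a median of 0.65. Brip1, a helicase that partners BRCA1, was at 1.68, 1.41 and 1.98 CPM in WT and 5.31 and 6.21 CPM in p27KO (1.78; adjusted p = 0.00066). Bard1, another partner of BRCA1, on chromosome 1, differed by 1.61 (adjusted p = 0.00054), and Exo1, a resection nuclease on chromosome 1, by 2.17 (adjusted p = 0.0017). Without replicates 1 and 2 labelled p27KO, the calls numbered 8 and 4 for replication, 2 and 1 for deoxynucleotides and 6 and 4 for repair, and they were 7 for repair without WT replicate 3 and 3 for deoxynucleotides without WT replicate 2. The call of Cdc6 was lost without replicate 2 labelled p27KO and that of Rrm1 without either.

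Among genes of chromosome structure, 8 of 14 cohesin and condensin genes were higher (median 0.77). Esco2, the acetyltransferase that establishes cohesion during S phase, was at 2.09, 2.07 and 2.93 CPM in WT and 13.2 and 10.8 CPM in p27KO, a 5.10-fold difference (2.35 ± 0.17; adjusted p = 0.00033). The condensin subunits Ncapg and Ncaph were higher by 1.69 and 1.34 (adjusted p = 0.00066 for both). Without replicate 1 labelled p27KO, 4 of the 8 calls were made.

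Of 54 genes of a G2/M phase list, 42 were higher, all 54 were positive and the median log2 fold change was 1.53. Of 41 genes of a G1/S list, 22 were higher, with a median of 0.65. The neurosphere medians were 0.04 and 0.16. The summed level of the G2/M genes was 2797-3549 CPM in WT and 4907-5144 CPM in p27KO, and that of the G1/S genes 715-818 and 1116-1131 CPM, so that the groups did not overlap in either sum. The difference between the 2 lists was not tested. Without replicate 1 or 2 labelled p27KO, 19 and 30 G2/M genes and 15 and 12 G1/S genes were called.

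**Figure D3:**
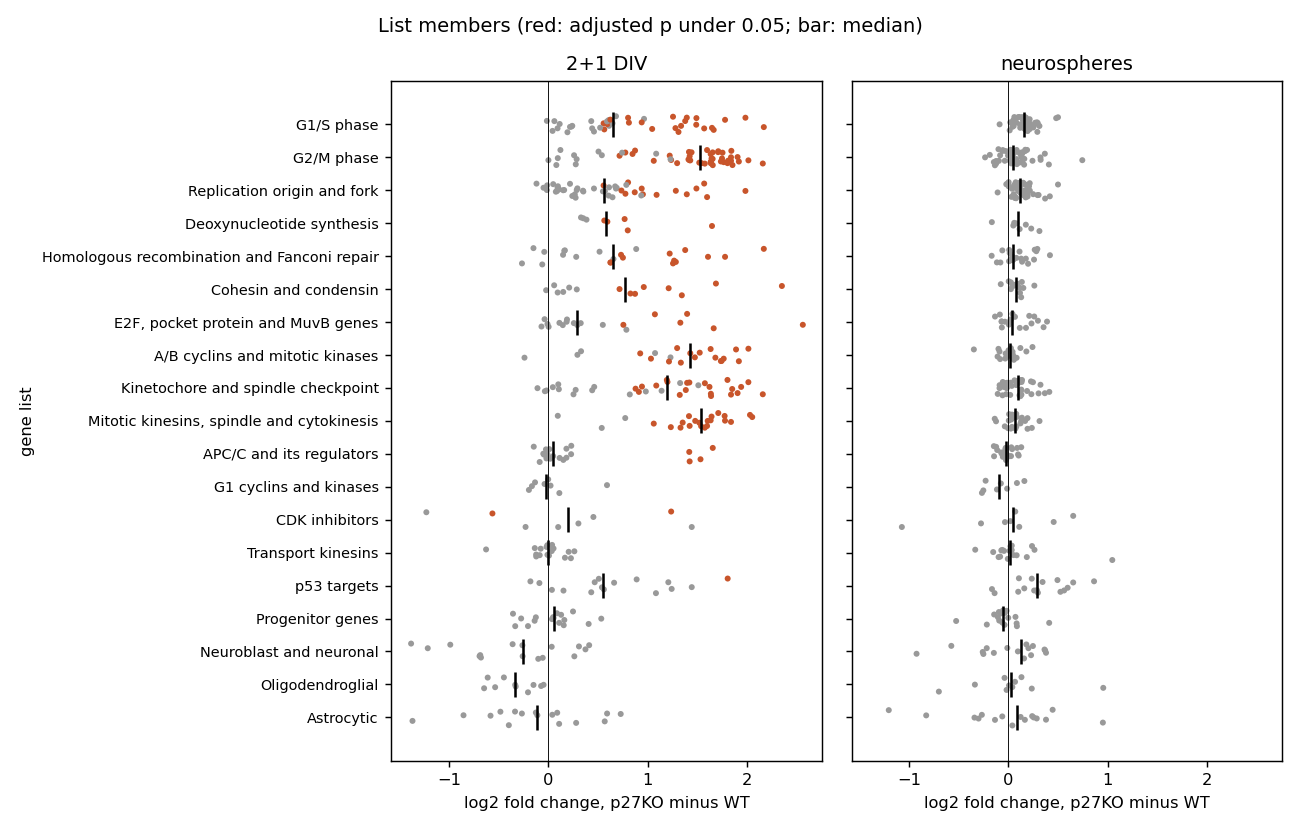
Each point is a tested member of the gene list on the vertical axis, placed by its log2 fold change, p27KO minus WT, at 2+1 DIV (left) and in neurospheres (right); red points have an adjusted p under 0.05 and bars are list medians. At 2+1 DIV the medians of the mitotic lists lie at 1.20 to 1.54, those of the G1 cyclins and transport kinesins near 0, and in neurospheres no point is red.

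Of 21 A and B cyclins and mitotic kinases, 16 were higher (median 1.43), and their summed level was 148-241 CPM in WT and 446-504 CPM in p27KO. Ccna2, the cyclin of S phase and mitotic entry, was at 22.5, 14.7 and 25.7 CPM in WT and 73.5 and 64.9 CPM in p27KO (1.74 ± 0.17; adjusted p = 0.00094). Cdk1, the mitotic CDK, was at 15.1, 7.92 and 12.4 CPM against 33.7 and 28.9 CPM (1.43 ± 0.20; adjusted p = 0.0058). Its partner cyclin Ccnb1 was at 30.03, 12.4 and 25.8 CPM against 68.9 and 55.3 CPM (1.47 ± 0.28; adjusted p = 0.030). WT replicate 2 was the lowest library for all 3 genes, and the spread among WT libraries was wider than for replication genes such as Rrm2 or Lig1. Mastl, the Greatwall kinase that restrains the phosphatase opposing CDK1, had closer WT values, 7.18, 6.59 and 7.16 CPM, against 17.1 and 14.9 CPM (1.21 ± 0.11; adjusted p = 0.00066). Pbk, a mitotic kinase, was at 10.8, 6.63 and 8.54 CPM against 32.9 and 30.4 CPM (1.89 ± 0.17; adjusted p = 0.00066). Without replicate 1 or 2 labelled p27KO, 6 and 11 calls were made. Those of Cdk1 and Ccnb1 were lost without replicate 1, and that of Ccnb1 also without replicate 2 or WT replicate 3.

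The kinetochore, the protein assembly that ties chromosomes to the spindle, gave 21 higher genes of 36, with a median of 1.20. Cenpf, a kinetochore protein on chromosome 1, was at 64.5, 38.7 and 68.1 CPM in WT and 263 and 240 CPM in p27KO, a 4.46-fold difference (2.16 ± 0.20; adjusted p = 0.00075). Bub1, a spindle checkpoint kinase, was at 7.79, 4.06 and 6.17 CPM against 23.1 and 21.5 CPM (1.92 ± 0.19; adjusted p = 0.00094). The outer kinetochore genes Knl1 and Spc25 were higher by 1.85 and 1.94 (adjusted p = 0.00066 and 0.00075). In neurospheres Bub1 was at 73.0-78.4 CPM in WT and at 83.2 and 71.6 CPM in p27KO, so that there the groups overlapped, and its difference between stages was 1.88 (adjusted p = 0.023). Without replicate 1 labelled p27KO, 13 of the 21 calls were made.

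Of 23 mitotic kinesins and genes of the spindle and cytokinesis, 20 were higher (median 1.54), whereas none of 18 kinesins of intracellular transport was called (median -0.00; none had an unadjusted p under 0.05 and DESeq2 called 0). With 1.86% of all autosomal genes higher and 0.121% lower, a list of 18 would often hold no call. Kif15, a spindle kinesin, was at 8.65, 6.01 and 9.21 CPM in WT and 27.6 and 26.2 CPM in p27KO (1.77 ± 0.15; adjusted p = 0.00054). The transport motor Kif1b was at 1198, 1477 and 1308 CPM against 1278 and 1368 CPM, with both libraries labelled p27KO inside the WT range (0.01; adjusted p = 0.99). Kif1a, another abundant transport motor, was at 729, 657 and 679 CPM against 777 and 793 CPM, with both above the WT range, and was not called (0.20; adjusted p = 0.42). Hmmr and Nusap1, both microtubule-binding spindle proteins, were higher by 1.84 and 1.52 (adjusted p = 0.00066 for both). Aspm, a spindle-pole protein on chromosome 1, was at 43.9, 20.9 and 43.8 CPM against 159 and 132 CPM (2.03; adjusted p = 0.0041). Without replicate 1 labelled p27KO, 9 of the 20 calls were made.

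The anaphase-promoting complex (APC/C) is the ubiquitin ligase that ends mitosis. Of 21 genes of the complex and its regulators, 4 were higher (median 0.05), none of them a core subunit. Its activator Cdc20 was at 13.3, 6.30 and 9.29 CPM in WT and 31.7 and 27.7 CPM in p27KO (1.65; adjusted p = 0.0054). Also higher were its inhibitor Fbxo5 (1.42; adjusted p = 0.0017), its ubiquitin-conjugating enzyme Ube2c (1.42; adjusted p = 0.042) and Espl1, separase, the protease that it sets free (1.53; adjusted p = 0.025). The 14 core subunits had log2 fold changes of -0.15 to 0.23, with 2 at an unadjusted p under 0.05 and 0 called by DESeq2. The calls of Ube2c and Espl1 were lost without WT replicate 3 and without either library labelled p27KO, and that of Cdc20 without replicate 1, whereas Fbxo5 kept its call without each of the 5 libraries.

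Of 19 E2F, pocket protein and MuvB genes, 6 were higher (median 0.29). The repressor E2f7 was at 1.32, 0.539 and 1.42 CPM in WT and 6.54 and 6.21 CPM in p27KO (2.56 ± 0.26; adjusted p = 0.00096). Its relative E2f8 was higher by 1.66 (adjusted p = 0.00077). The activator E2f2 was at 0.814, 0.953 and 1.07 CPM against 2.42 and 2.56 CPM (1.4; adjusted p = 0.0030). The mitotic activator Foxm1 was at 15.4, 12.4 and 15.9 CPM against 38.3 and 34.0 CPM (1.33 ± 0.15; adjusted p = 0.0015). Mybl2, which encodes B-MYB, differed by 1.07 (adjusted p = 0.010) and the pocket protein p107, Rbl1, by 0.75 (adjusted p = 0.0032). E2f2 and E2f7 had the fewest counts of these genes, and the calls of Mybl2 and Rbl1 were lost without replicate 2 and replicate 1 labelled p27KO, respectively.

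The G1 cyclins and their kinases, on which p27 acts, were not among the called genes. None of 8 passed (median -0.02; 1 with an unadjusted p under 0.05, and 0 called by DESeq2), and their summed level was 1098-1559 CPM in WT and 1349-1373 CPM in p27KO. Ccnd2, the D cyclin with the highest count, was at 667, 960 and 1150 CPM in WT and 1020 and 960 CPM in p27KO, within the WT range (0.11; adjusted p = 0.81). Cdk4 was at 258, 192 and 233 CPM against 189 and 213 CPM (-0.17; adjusted p = 0.57). Ccne2, an E cyclin and E2F target, was at 5.65, 8.74 and 8.11 CPM against 11.4 and 11.1 CPM (0.59; adjusted p = 0.18). Of 8 CDK inhibitors (median 0.20), Cdkn1b was lower and Cdkn3, a phosphatase of CDK2, was higher, at 1.48, 0.995 and 1.11 CPM against 3.05 and 2.47 CPM (1.24; adjusted p = 0.012, lost without replicate 1 labelled p27KO). Of the 8, 6 had an unadjusted p under 0.05, and DESeq2 called 2 higher and 2 lower. The other inhibitors were not called by edgeR. Cdkn1a, which encodes the p27 relative p21, had a log2 fold change of 1.44 (adjusted p = 0.20), Cdkn2a of -1.23 (adjusted p = 0.15) and the INK4 gene Cdkn2c of 0.45 (adjusted p = 0.087).

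Cdkn1a is also a target of p53, and the 3 targets given below shared a library pattern. Of 16 p53 targets, 1 was higher, the apoptosis gene Pmaip1 (Noxa), at 3.16, 8.04 and 7.16 CPM in WT and 19.7 and 23.1 CPM in p27KO (1.80 ± 0.35; adjusted p = 0.033). The median of the list was 0.55, 14 of 16 were positive and 12 had an unadjusted p under 0.05. Cdkn1a was at 19.9, 75.1 and 61.3 CPM against 159 and 123 CPM. The cyclin G gene Ccng1 was at 112, 314 and 286 CPM against 574 and 540 CPM (1.24; adjusted p = 0.16). For all 3 genes WT replicate 1 was the lowest library, by more than 2-fold, and both libraries labelled p27KO were above the WT range. The summed level of the list was 904-1410 CPM in WT and 2088-2159 CPM in p27KO. Leaving out WT replicate 1 raised the number of calls to 4, DESeq2 called 6, and no call was made without WT replicate 3 or without either library labelled p27KO.

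Progenitor and lineage genes were not called in either direction: none of 17 progenitor genes (median 0.05), 16 neuronal genes (-0.26), 10 oligodendroglial genes (-0.33) or 16 astrocytic genes (-0.12). Of all autosomal genes, 1.86% were higher and 0.121% lower, so that lists of this size would often hold no call. All 10 oligodendroglial genes were negative, and the summed level of that list was 986-1320 CPM in WT and 927-929 CPM in p27KO. Of the neuronal genes 5 were positive, so that the median was below 0, while their summed level was 2370-2551 CPM in WT and 2826-3040 CPM in p27KO. Neither sum overlapped between the groups, whereas those of the progenitor genes (7718-9095 and 8846-8929 CPM) and the astrocytic genes (11320-12856 and 11076-11688 CPM) did. Sox2, a factor of neural stem cells, was at 365, 369 and 375 CPM in WT and 337 and 334 CPM in p27KO (-0.13 ± 0.12; adjusted p = 0.66). Olig2, of the oligodendroglial lineage, was at 277, 231 and 289 CPM against 224 and 232 CPM (-0.20 ± 0.12; adjusted p = 0.47). For Sox2 both libraries labelled p27KO lay just below the WT values, while for Olig2 the groups overlapped. The neuronal microtubule gene Map2 was at 1391, 1537 and 1665 CPM against 1966 and 2067 CPM (0.41, adjusted p = 0.15). This gene alone made up most of the neuronal sum in every library, so that the higher sum does not describe the list as a whole. The astrocytic lipoprotein gene Apoe was at 2397, 1805 and 1619 CPM against 1352 and 1215 CPM (-0.58; adjusted p = 0.16). The intermediate filament gene Gfap was at 94.4, 90.9 and 146 CPM against 145 and 180 CPM (0.57; adjusted p = 0.39). Among the 25 neuronal genes, Dlx5 and Sp8 were at 0 in all 5 libraries. An unadjusted p under 0.05 was found for 2 progenitor, 4 neuronal, 0 oligodendroglial and 2 astrocytic genes, and DESeq2 called 1, 1, 0 and 1. Over all 12352 autosomal genes tested, 1835 had such an unadjusted p. A replicate block with crossed p27KO neurosphere numbers, an alternative chosen after seeing the data, called 4 astrocytic genes lower. Lists of serum response, Notch, Id and BMP, ERK feedback and interferon genes also gave no call among 14, 10, 12, 12 and 5 tested. In the same order, an unadjusted p under 0.05 was found for 4, 0, 2, 1 and 2 genes, and DESeq2 called 1, 0, 2, 0 and 1. Their medians lay between -0.04 (Id and BMP) and 0.13 (ERK feedback).

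The 15 genes that were lower formed no list of those examined, apart from Cdkn1b among the CDK inhibitors. Grin2a, a subunit of the NMDA glutamate receptor, was at 5.14, 3.98 and 3.52 CPM in WT and 0.674 and 0.944 CPM in p27KO (-2.36 ± 0.39; adjusted p = 0.012). In neurospheres it was at 3.44-7.94 against 1.65 and 1.82 CPM. Kcnj16, an inwardly rectifying potassium channel, was at 54.9, 51.0 and 58.1 CPM against 28.9 and 26.2 CPM (-0.97 ± 0.13; adjusted p = 0.0043). Hexa, a lysosomal hexosaminidase subunit, was at 73.4, 59.6 and 63.5 CPM against 39.2 and 41.6 CPM (-0.68 ± 0.10; adjusted p = 0.0067). Both libraries labelled p27KO lay below every WT library for each of the 15 genes. Xkr4, on chromosome 1, had a log2 fold change of -1.72 (adjusted p = 0.034). The remaining genes lay between -0.91 and -0.40. They were the phospholipase gene Pla2g16, Kyat1, which encodes an aminotransferase of kynurenine, Amdhd2, Fbxo2, Lhfp, Tom1, Sfi1, Tmem176b, Ntm, which encodes the adhesion protein neurotrimin, and the lipase gene Abhd12. In neurospheres 14 of the 15 were negative, with a median of -0.18, and none differed between stages by edgeR (9 at an unadjusted p under 0.05, 3 called by DESeq2). The count of 15 depended on which library was left out: 6 genes were lower without WT replicate 1 and 33 without WT replicate 3. It also fell without either library labelled p27KO, when a lone sample is left in that group.

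**Figure D4:**
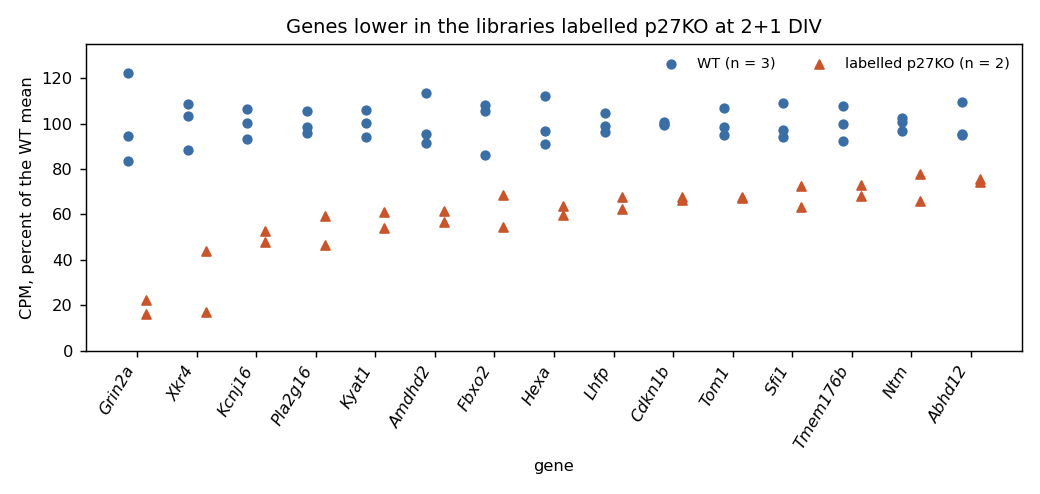
Points give the level of each of the 15 lower genes in each library at 2+1 DIV as a percent of the WT mean, circles for WT (n = 3) and triangles for the libraries labelled p27KO (n = 2), in the order of their log2 fold changes. The triangles lie below all circles for each gene, from Grin2a (-2.36) to Abhd12 (-0.40), and the WT spread of Cdkn1b is the smallest.

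Genes near Cdkn1b on chromosome 6 had fold changes around 0. Of 26 tested genes within 5 Mb on each side, none was called (3 at an unadjusted p under 0.05, 0 by DESeq2) and the median was -0.02, and within 10 Mb 3 of 78 were higher, namely Foxm1, Rad51ap1 and Ncapd2, all cell cycle genes.

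Chromosome 1 differed between the groups along its length. Of 774 genes tested on it, 38 were higher (4.91%) and 1 lower, against 0.844-2.77% higher on the other autosomes. The median log2 fold change of the chromosome was 0.32, which is 1.25-fold, with 88.0% of genes positive (44.3% on all other autosomes). It was 0.26, or 1.20-fold, in neurospheres, with 90.3% positive. Medians of 5 successive windows of 40 Mb lay between 0.30 and 0.33, each over 110-203 genes. The medians of 17 other autosomes lay between -0.08 and 0.04 (-0.03 to 0.01 in neurospheres). Per library, as the median deviation from the WT mean, chromosome 1 was at -0.09, -0.07 and 0.15 in WT and at 0.34 and 0.31 in p27KO at 2+1 DIV. In neurospheres it was at 0.00, -0.13 and 0.13 in WT and at 0.31 and 0.22 in p27KO. WT replicate 3 was thus the highest WT library at both stages, and all 4 libraries labelled p27KO were above it. Chromosome 15 had a median of -0.21, with library medians of 0.29, -0.15 and -0.14 in WT and -0.18 in both libraries labelled p27KO, so that WT replicate 1 alone stood apart at 2+1 DIV. Its median in neurospheres was -0.04.

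**Figure D5:**
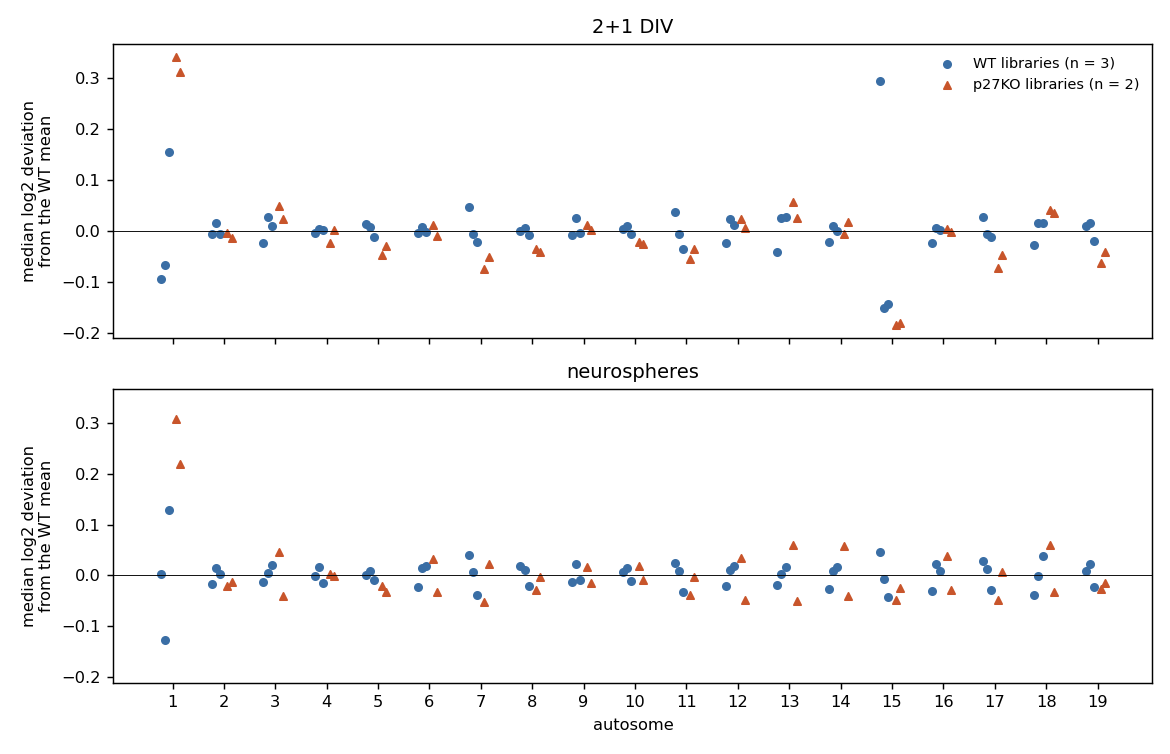
Points give, for each autosome and library, the median over tested genes of the log2 deviation from the WT mean, at 2+1 DIV (top) and in neurospheres (bottom), circles for WT (n = 3 at each stage) and triangles for the libraries labelled p27KO (n = 2 at each stage). Chromosome 1 lies at 0.31 and 0.34 in the 2 libraries labelled p27KO at 2+1 DIV, chromosome 15 at 0.29 in WT replicate 1, and the 17 other autosomes between -0.08 and 0.06 at that stage.

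The cell cycle genes differed as much away from chromosome 1. Of the 230 higher genes, 192 lie on other autosomes, and the G2/M median without chromosome 1 was 1.52 and the G1/S median 0.62. With each library's chromosome medians entered as an offset, an alternative chosen after seeing the data, 22 G1/S and 42 G2/M genes were called. With this offset 227 genes in all were higher, and of the 38 on chromosome 1 the call was kept for all 12 in the cell cycle lists but for 7 of the 26 others. Before the offset the 12 lay between 1.28 (Mcm3) and 2.17 (Exo1). The offset takes a similar amount from every gene of the chromosome, so that genes with larger fold changes keep the call more readily. The 26 others had a median of 0.75 at 2+1 DIV and 0.35 in neurospheres, 25 were positive there, and none differed between stages by edgeR (9 at an unadjusted p under 0.05, 0 by DESeq2). Nucks1, a chromatin-associated protein, was at 146, 162 and 211 CPM in WT and 373 and 351 CPM in p27KO (1.08; adjusted p = 0.0056) and was called with the offset, as was the thiamine transporter Slc19a2 (1.53; adjusted p = 0.012). Irs1, an adaptor of the insulin receptor, at 69.1, 58.7 and 65.8 CPM against 91.0 and 91.6 CPM (0.52; adjusted p = 0.016), was not called with it. Nor were Rasal2, a Ras GTPase-activating protein (0.43; adjusted p = 0.032), and Zbtb18, a transcriptional repressor (0.43; adjusted p = 0.038). The call of Nucks1 was lost without replicate 1 labelled p27KO and those of the other 4 without either of them. Those of Rasal2 and Zbtb18 were also lost without WT replicate 1 or 2 and that of Irs1 without WT replicate 2.

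Outside the lists and chromosome 1, 76 genes were higher (0.671% of 11331), with a median of 1.15 and, in neurospheres, of 0.10, and 15 differed between stages. The list boundaries leave several proliferation genes here. Arhgap11a, a GTPase-activating protein, was at 27.6, 23.2 and 28.5 CPM in WT and 74.5 and 64.3 CPM in p27KO (1.41 ± 0.10; adjusted p = 0.00033). Cep55, of abscission, and Cip2a, an inhibitor of the phosphatase PP2A, were higher by 1.93 and 1.42 (adjusted p = 0.00057 and 0.00094). Lmnb1, which encodes lamin B1, was at 72.9, 58.2 and 82.0 CPM against 129 and 128 CPM (0.87; adjusted p = 0.0072). The nucleosome-binding gene Hmgn2 was at 219, 189 and 218 CPM against 310 and 302 CPM (0.57; adjusted p = 0.010). Both calls were lost without either library labelled p27KO. The largest fold change of all, 6.14-fold, belonged to Ass1, argininosuccinate synthase of arginine synthesis, at 2.19, 6.42 and 4.74 CPM in WT and 26.8 and 27.9 CPM in p27KO (2.62 ± 0.35; adjusted p = 0.0043). In neurospheres Ass1 was at 0.231-0.439 CPM in WT and at 1.07 and 1.33 CPM in p27KO. Its log2 fold change of 1.86 was not called there (adjusted p = 0.74), and the groups did not overlap at either stage.

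The higher genes can be set beside their promoters. RefSeq windows of 300 bases, from 250 before to 50 after the start, were found for 186 of the 230 higher genes. A CHR was present in 89 of these (47.8%), a CCAAT box in 120 (64.5%), both in 63 (33.9%) and an E2F site in 28 (15.1%). Over the windows of all 27025 genes, the shares were, in the same order, 21.7%, 41.1%, 8.61% and 2.12%. These 27025 include genes that were not tested here, so that the background is not matched to the higher genes. In 48 G2/M genes with a window the shares were 75%, 77.1%, 60.4% and 6.25%. A match is a description of the letters and not a binding site. Of the 12 genes with the largest positive fold changes among those with a mean of at least 10 CPM, 11 had a window. Only the first window of each gene was searched for this count, and 7 of the 11 held a CHR there. It is shown here in capitals within 30 bases of GRCm38.p6, because these 7 genes, all of mitosis, are among those with the largest differences.
Cenpf (chr1:189688067-189688096, minus strand): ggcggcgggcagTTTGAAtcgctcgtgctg
Kif14 (chr1:136467608-136467637, plus strand): ggaggtcctgtcTTTGAAgtctgcagtgtc
Aspm (chr1:139454767-139454796, plus strand): ggaggcgcgataTTTGAAccgagcaaaagc
Spc25 (chr2:69206172-69206201, minus strand): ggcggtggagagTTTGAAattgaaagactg
Bub1 (chr2:127831828-127831857, minus strand): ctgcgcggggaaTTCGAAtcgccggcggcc
Psrc1 (chr3:108383796-108383825, plus strand): gagcctaagaaaTTCGAAcgaagctccgcc
Knl1 (chr2:119047138-119047167, plus strand): agggcggttagaTTTGAAtacttcagggac
The CHR lies within 31 bases after the start in all of them except Kif14, where it begins 228 bases before it. Kif14 is a cytokinesis kinesin and Psrc1 a spindle protein. Kif14 was at 6.11, 2.86 and 7.16 CPM in WT and at 24.0 and 19.9 CPM in p27KO (2.05; adjusted p = 0.0057). Psrc1 was at 8.40, 16.7 and 14.4 CPM against 48.3 and 46.7 CPM (1.85; adjusted p = 0.0062). In both, the libraries labelled p27KO stood above all WT libraries, and both calls were lost without replicate 1 labelled p27KO.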

How the data were processed

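RNA-seq libraries of SEZ cultures were analysed: 3 WT and 2 p27KO at 2+1 DIV, and 3 WT and 2 p27KO neurosphere libraries. The deposited tables hold expected counts, which the authors obtained with RSEM from reads aligned with STAR, rounded and not normalized. The submitters' processing notes also name Trimmomatic, cutadapt, FastQC, DESeq2 and the builds GRCm38 and mm10. Whether counting used strand is not given in the sources used here, so that genes overlapping another gene, such as Sgo2a, Ccna2, Nusap1, Hexa, Tom1 and Sfi1, may share its reads.

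All 10 libraries were fitted as 4 groups in R 4.3.3 with edgeR 4.0.16, which loads limma 3.58.1 (TMM scaling, robust quasi-likelihood test, two-sided, Benjamini-Hochberg adjustment over all 12859 genes tested, threshold 0.05). Genes with under 1 CPM in at least 4 libraries were discarded, as in the study's methods, which tested with DESeq2. CPM are counts over the library total without TMM factors; log2 fold changes are fitted values and their SE is the fold change over the square root of F. At 19190068 to 25291674 counts per library, the spread between 2 or 3 libraries sets the precision. With 2 against 3 libraries an exact permutation test cannot go below p = 0.2, so that none was run for single genes. No library was a copy of another of its group: a chi-square per gene between replicates was 14.8 to 64.5 times that of sampling alone.

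The difference between stages is the interaction term of the same fit. The members and gene lists were chosen with earlier results of these data known. Genes named are, among called genes whose mean reached 10 CPM, those with the largest fold change in each direction (up to 12), the 5 smallest adjusted p-values, genes the study names, and list members (the 3 called with the smallest adjusted p, or the 2 most abundant where none was called); genes beyond this rule, such as Pcna, Grin2a, Nucks1, Irs1, Cep55 and Cdkn1a, were chosen after their values were seen. Of 48795 listed genes, 48349 had a GRCm38 position.

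Promoter windows came from RefSeq (GRCm38.p6) and were matched by symbol; they exist for 75.6% of the autosomal genes tested, 73.2% of the G1/S genes and 73.3% of the lower genes, all under 80%, so that motif shares are void for these sets and all promoters were taken as background. The alternatives were DESeq2 1.42.0, its size factors, other filters, the 5 libraries alone, a minimum fold change, thinned counts, the replicate number as a block and each library left out; the crossed numbers, the chromosome offset and counts without chromosome 1 were chosen after seeing the data. Same-numbered WT libraries of both stages deviated together (correlations 0.248, 0.301 and 0.395), same-numbered p27KO libraries did not (-0.138), nor did same-numbered WT and p27KO libraries at 2+1 DIV (-0.102 and -0.0693). The steps were tested on simulated counts. Tables were made with pandas 2.3.3 and plots with matplotlib 3.10.9, under Python 3.11.15. Some genes that met the naming rule are not reported here.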

Additional observations from a re-analysis of the deposited data

Results flagged for a closer look

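For 31 of the genes named above, the difference between the libraries labelled p27KO and WT was larger at 2+1 DIV than in neurospheres by the interaction term of edgeR's quasi-likelihood test (adjusted p under 0.05 after Benjamini-Hochberg adjustment). The values below are differences between the log2 fold changes of the 2 stages. Among replication and repair genes they were 1.33 for Rrm2, 1.18 for Mcm5, 1.38 for Clspn, 0.75 for Lig1, 1.72 for Ticrr, 0.94 for Dbf4, 1.19 for Bard1 and 1.52 for Brip1. Among genes of cohesion, condensation and the centromere they were 2.09 for Esco2, 1.56 for Ncapg, 1.19 for Ncaph, 1.79 for Cenpf, 1.81 for Spc25, 1.88 for Bub1 and 1.71 for Knl1. Among cyclins, mitotic kinases and their regulators they were 1.72 for Ccna2, 1.77 for Pbk, 1.21 for Mastl, 1.65 for Aurkb, 1.31 for Fbxo5 and 1.42 for Cip2a. Among genes of the spindle and cytokinesis they were 1.30 for Ckap2, 1.48 for Nusap1, 1.76 for Hmmr, 1.64 for Kif15, 1.86 for Cep55 and 1.32 for Arhgap11a. For transcription factors and the proliferation marker they were 2.21 for E2f7, 1.49 for E2f8, 1.31 for Foxm1 and 1.65 for Mki67. Each gene was already called higher at 2+1 DIV, and the group of p27KO against WT in neurospheres had no call. Of the 31, 24-31 also passed without 1 WT library at 2+1 DIV, 10 without replicate 1 of the WT neurospheres, and 0 without replicate 2 or 3 of the WT neurospheres or any library labelled p27KO. Bard1 and Cenpf lie on chromosome 1, where the median log2 fold change was 0.32 at 2+1 DIV and 0.26 in neurospheres.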

How the results depend on the processing

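The 230 higher and 15 lower genes became 504 and 108 with DESeq2 (244 of the 245 calls shared, in the same direction) and 34 and 3 with the 5 libraries at 2+1 DIV alone, which also left 4 G1/S and 8 G2/M genes; the lower genes became 25 without a filter and 2 at an absolute log2 fold change of at least 1. Leaving out 1 library gave 89-235 higher, 4-33 lower, 12-25 G1/S and 19-44 G2/M genes, and 0-41 named genes that differed between stages. In neurospheres DESeq2 called 36 genes, and it found 53 named genes to differ between stages. With the replicate number as a block, which no label ties to a culture, 338 genes were higher and 38 lower, 27 G1/S and 44 G2/M; with the numbers of the p27KO neurospheres crossed, 397 and 103. Of 79 called named genes, none changed sign and 22 kept the call in every setting, 66 in those using all 10 libraries other than the minimum fold change and the chromosome offset, which lost 22 and 6. Of 22 named genes without a call, 9 were called in some setting and 3 changed sign: Ccnd2 ranged from -0.070 to 0.28, Ncam1 from -0.18 to 0.041 when 1 library was left out, and Glul was -0.049 with the chromosome offset. The causes were not tested, except that the fits of 5 libraries hold fewer samples. For genes near 1 CPM, a difference may not have been detectable at this depth.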
